A study of Xenopus laevis with 8 samples.

Results

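Probe sets for 5 genes of mesoderm and muscle were followed over Xenopus laevis animal caps: tbxt (brachyury, also called Xbra), vegt, myod1, actc1 and mef2d. The members are all probe sets whose single annotated symbol is 1 of these names, with or without the suffix that marks the copy on the long (.L) or short (.S) subgenome. Of 32539 probe sets, 11 met this rule. They cover 9 gene copies, with actc1.L and mef2d.L each measured by a pair of probe sets. The rule reads symbols alone, but the 5 genes were picked with earlier results of these arrays known, among them the difference between the morpholino arrays described here.

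The animal cap is the ectoderm at the top of the blastula, which makes epidermis when it is cultured alone. Embryos of the 3 injected groups received messages or morpholino at the 2-cell stage, and their caps, explanted at stage 9, were grown to stage 15 before RNA was hybridised. Each of 4 groups had 2 arrays: an uninjected control, a group given chordin mRNA, a group given chordin plus wnt3a mRNA, and a group given those mRNAs plus a morpholino against lrig3. Chordin binds bone morphogenetic proteins outside the cell and blocks them, Wnt3a activates the canonical Wnt pathway, and Lrig3 sits in the cell membrane and carries leucine-rich repeats. Every group given the morpholino also carried both messages, no group had the morpholino or wnt3a alone, and injected doses are not given in the sources used here.

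Mesoderm normally forms at the equator of the embryo, where nodal-type ligands and fibroblast growth factors (FGFs) switch on T-box genes in cells that would otherwise stay ectoderm. Tbxt is a T-box transcription factor of the early mesoderm that later marks notochord and tailbud. In Xenopus, vegt encodes a maternal T-box factor of the vegetal cells and is expressed again in the early mesoderm. Myod1 is a basic helix-loop-helix factor that commits cells to skeletal muscle, mef2d is a MADS-box partner of such factors, and actc1 encodes the cardiac-type alpha-actin that Xenopus somites also make.

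Signals are linear and scaled by array, so a level can be set against the same probe set on other arrays but not against another probe set. The arrays had median signals of 95.6 to 114. The background of an array was taken as the highest of its 23 negative control probe sets, between 19.5 and 30.8, and 68.6% to 76.0% of probe sets lay above it. Across the 22000 probe sets kept for testing, arrays of the same group correlated at 0.929 to 0.967 and arrays of different groups at 0.739 to 0.925. The labels were checked on the injected messages. Chrd.1.S was at 1.66 and 1.34 in uninjected caps and at 468 and 771 with chordin. It was at 100 and 291 with chordin and wnt3a, and at 156 and 159 with the morpholino. Wnt3a.S was at 10956 and 18771 with chordin and wnt3a, at 27548 and 25480 with the morpholino, and at no more than 28.2 on the others. The level of lrig3 message does not check the morpholino, which blocks translation or splicing. Lrig3.S read 95.6 and 172 in uninjected caps and 3191 and 2158 with chordin. It read 741 and 756 with chordin and wnt3a, and 4787 and 3002 with the morpholino. All 15 epidermis list genes were above background in both uninjected arrays, with summed signals of 224806 and 190970.

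The 2 morpholino arrays differed widely in these genes. Every one of the 11 probe sets had its highest signal of all 8 arrays on morpholino replicate 1. Among all probe sets kept, 17.9% were highest there. On the scale log2(signal + 5.22), on which all differences here are given, 9 of the 11 were at least 4-fold higher on morpholino replicate 1 than on replicate 2. That gap was reached by 1.18% of all probe sets kept and by all 7 members kept, some of them kept through that array. Not all 11 members passed the filter, which asks for 2 bright arrays and so drops probe sets bright on 1. The shares and median of all probe sets kept are thus not from a set like the 11. The median gap of the 11 was 3.48, beside -0.03 for all probe sets kept. In these bulk samples, more cells of a type and more RNA per cell cannot be told apart.

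**Figure D1:**
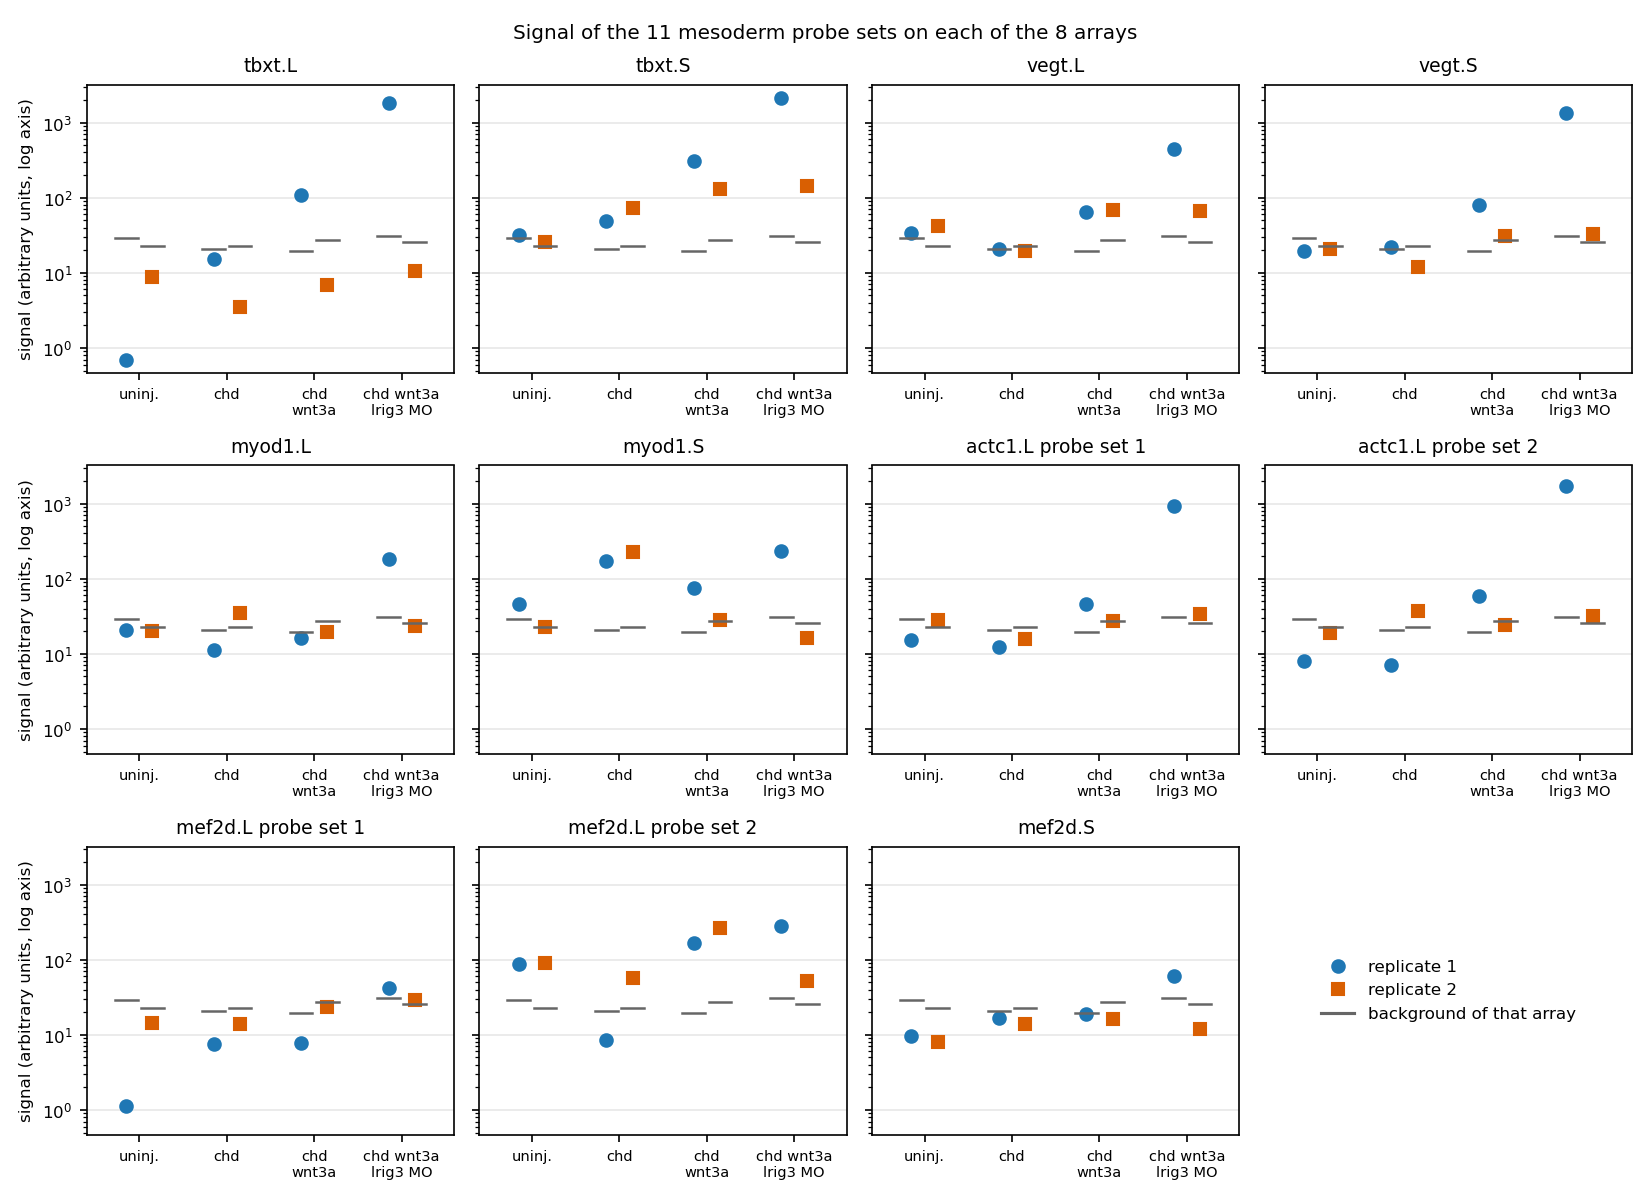
Signal of each of the 11 probe sets (log axis, arbitrary units) on the 8 arrays by group, circles for replicate 1 and squares for replicate 2, with a grey line at the background of each array; chd is chordin and MO is morpholino. The blue circle of morpholino replicate 1 is the highest point in each panel, from 42.0 for mef2d.L probe set 1 to 2152 for tbxt.S.

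In each other group at most 1 member had such a gap. Between the uninjected arrays, none of the 11 differed by 4-fold with replicate 1 higher, against 0.432% of all probe sets. None did so between the chordin arrays, against 0.409%. There, mef2d.L probe set 2 was the single member at least 4-fold lower on replicate 1. With chordin and wnt3a, tbxt.L alone was at least 4-fold higher on replicate 1, against 1.93%. The median gap was -0.06 in uninjected caps, -0.39 with chordin and 0.64 with chordin and wnt3a.

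**Figure D2:**
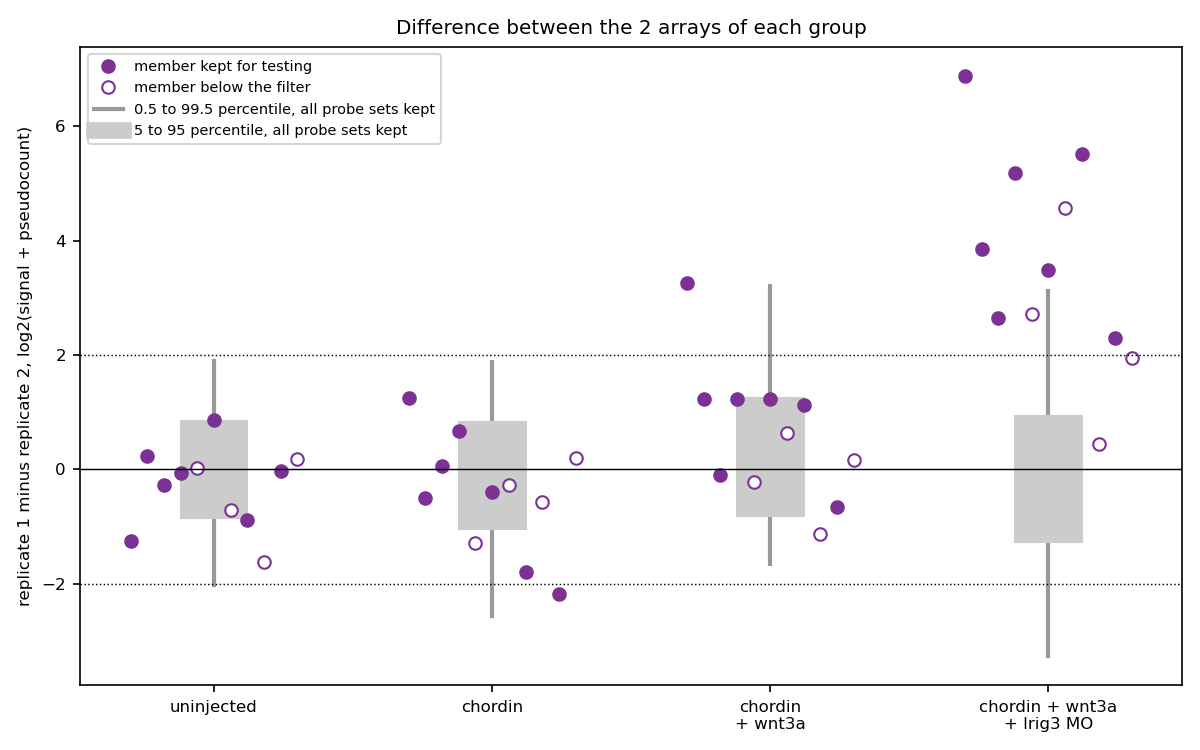
Difference between replicate 1 and replicate 2 of each group, log2(signal + pseudocount), for the 11 members (filled: kept for testing; open: below the filter) over the percentiles of the 22000 probe sets kept; dotted lines mark a 4-fold difference. In the morpholino group 9 members lie above the upper dotted line, and the other groups have at most 1 there.

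Among the T-box genes, tbxt.S was the member above background on all 8 arrays. Its signals were 31.6 and 26.0 in uninjected caps, 49.6 and 72.0 with chordin, 312 and 131 with chordin and wnt3a, and 2152 and 144 with the morpholino. Both uninjected arrays were lowest and both chordin arrays came next without overlap. The chordin and wnt3a arrays lay above these, and morpholino replicate 2 lay between them while replicate 1 was 15.0 times replicate 2. The group means followed that order, at 28.8, 60.8, 222 and 1148. Neighbours in the order did not pass the test, with limma adjusted p of 0.566, 0.561 and 0.490. The uninjected signals were just above the backgrounds of those arrays, 28.7 and 22.5. Against uninjected caps, tbxt.S was higher in the morpholino group by a log2 change of 4.06 (SE 1.13, limma adjusted p = 0.0322), a fold of 16.7 over that base. This was the single call among the 7 tested members over 6 comparisons in the main fit, which has no replicate block. It did not hold with morpholino replicate 1 left out, where the change was 2.14 (adjusted p = 0.0533).

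Its partner tbxt.L was above background on 2 arrays. Signals of tbxt.L were 0.692 and 8.87 in uninjected caps, 15.3 and 3.45 with chordin, 110 and 6.87 with chordin and wnt3a, and 1835 and 10.5 with the morpholino. Replicate 1 of the chordin and wnt3a group and replicate 1 of the morpholino group were therefore the arrays with measurable tbxt.L, and the other array of each group was at background. With replicate 2 below its background of 26.1, replicate 1 was at least 70.3-fold higher. The morpholino group was at least 5.54-fold above uninjected caps on the group means (log2 change 4.22, SE 2.16, limma adjusted p = 0.167). That change was 0.78 without morpholino replicate 1 and 7.66 without replicate 2. Tbxt.L passed the filter through morpholino replicate 1, so the change of 7.66 repeats that choice and is no support for a difference. A probe set for the related tbxt.2.S, chosen after its values were seen and outside the member rule, read 307 on morpholino replicate 1 and 9.07 on replicate 2, with all other arrays between 1.26 and 22.8.

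For vegt.L, signals were 34.3 and 42.3 in uninjected caps, 20.5 and 19.4 with chordin, 64.4 and 69.0 with chordin and wnt3a, and 451 and 67.4 with the morpholino. Both chordin arrays were at background and were the lowest. Morpholino replicate 2 lay within the range of the chordin and wnt3a arrays, and replicate 1 stood 6.54-fold above the next array. Signals of vegt.S were 19.6 and 20.6, 21.9 and 11.9, 80.0 and 31.2, and 1363 and 32.6 in the same order of groups. Morpholino replicate 2 was again near the lower chordin and wnt3a array, and the morpholino arrays differed 41.8-fold. That replicate 2 signal was close to its background of 26.1. Both uninjected arrays and chordin replicate 2 were below background for vegt.S.

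Vegt.L was the member closest to a call against chordin caps. The morpholino group was at least 6.78-fold higher (log2 change 2.86, SE 0.77, limma adjusted p = 0.0588), and it passed with the replicate number as a block (adjusted p = 0.0496) and with spike-in scaling (0.0377). Without morpholino replicate 1 the change was 1.53 and without replicate 2 it was 4.18. The latter rests on the array known to be high when the genes were picked and is no support for a difference. Leaving out any of the other 6 arrays gave adjusted p from 0.0839 to 0.211. Adding wnt3a to chordin gave vegt.L a log2 change of 1.51 (SE 0.77, adjusted p = 0.389), at least 2.68-fold, with no overlap between the groups. That change passed in 1 of 16 alternatives, with morpholino replicate 2 left out (adjusted p = 0.0381), and adjusted p reached 0.670 in the others.

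Among the muscle regulators, myod1.S followed another order. It read 46.1 and 23.0 in uninjected caps, 174 and 229 with chordin, 74.3 and 28.5 with chordin and wnt3a, and 232 and 16.0 with the morpholino. Both chordin arrays were high, and so was morpholino replicate 1, which exceeded chordin replicate 2 by a factor of 1.01. Morpholino replicate 2 was below its background of 26.1 and was the lowest of the 8. Chordin caps were 5.38-fold above uninjected caps (log2 change 2.43, SE 1.07, limma adjusted p = 0.131). That difference passed when morpholino replicate 1 was left out of the fit (adjusted p = 0.0189), when replicate 2 was (0.0171), and in a fit of the 4 arrays compared (0.0111). In all it passed in 4 of 16 alternatives, with adjusted p up to 0.363. With wnt3a added to chordin, the log2 change of myod1.S was -1.98 (SE 1.07, adjusted p = 0.428).

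Myod1.L was above background on chordin replicate 2, at 34.8, and on morpholino replicate 1, at 182. Its other 6 signals were between 11.2 and 23.3. Myod1.L was thus high on 1 of the 2 chordin arrays on which myod1.S was high. It did not pass the filter on dim probe sets.

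Mef2d.L probe set 2 was high on more than 1 array. Its signals were 87.8 and 89.9 in uninjected caps, 8.48 and 56.5 with chordin, 164 and 261 with chordin and wnt3a, and 280 and 52.7 with the morpholino. Both chordin and wnt3a arrays were above both chordin and both uninjected arrays, and morpholino replicate 1 was 1.07 times the higher of them. Adding wnt3a to chordin gave a log2 change of 2.87 (SE 0.91, limma adjusted p = 0.149), a fold of 7.31. This fold rests on chordin replicate 1, which was below its background of 20.8: the log2 change was 1.79 (adjusted p = 0.547) without that array and 3.96 (0.112) without chordin replicate 2. The other mef2d probe sets were dim. Mef2d.L probe set 1 reached 42.0 and 29.3 in the morpholino group and at most 23.4 elsewhere, and mef2d.S exceeded background only on morpholino replicate 1, at 60.5.

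Actc1.L stood for the structural output of muscle and its probe sets gave the same order of arrays at the top. Probe set 1 read 15.2 and 28.0 in uninjected caps, 12.2 and 15.8 with chordin, 46.3 and 27.7 with chordin and wnt3a, and 938 and 34.3 with the morpholino. Probe set 2 read 7.94 and 19.0, 7.04 and 37.3, 59.2 and 24.3, and 1709 and 32.4. In both, morpholino replicate 1 came first and chordin and wnt3a replicate 1 second, 20.3-fold and 28.9-fold apart, and morpholino replicate 2 was close to background. Probe set 2 is of the manufacturer's type that may hybridise to several transcripts. Against uninjected caps it was at least 8.28-fold higher in the morpholino group (log2 change 3.83, SE 1.65, limma adjusted p = 0.112). The change was 1.07 without morpholino replicate 1 and 6.58 without replicate 2. Probe set 2 passed the filter through morpholino replicate 1, so the change of 6.58 repeats that choice and is no support for a difference.

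The 7 members that passed the filter were tbxt.L, tbxt.S, vegt.L, vegt.S, myod1.S, actc1.L probe set 2 and mef2d.L probe set 2. Without morpholino replicate 1, the filter would have passed 4 of them (tbxt.S, vegt.L, myod1.S and mef2d.L probe set 2). The other 3 (tbxt.L, vegt.S and actc1.L probe set 2) were tested because that array was high, so no count or median over the 7 stands for all 11 or supports a difference of the morpholino group. Chordin against uninjected called 0 of them higher or lower, while 17.6% of all probe sets tested were called higher and 11.7% lower. When wnt3a was added to chordin, 0 were called, beside 3.08% higher and 2.74% lower. Chordin with wnt3a against uninjected called 0, beside 19.0% and 14.7%.

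In the comparison that adds the morpholino, chordin and wnt3a caps with it against those without, 0 of 7 members were called, beside 2.73% of probe sets higher and 2.16% lower. No group had a control morpholino. The injected wnt3a.S message differed as well, by a log2 change of 0.89 (SE 0.35, limma adjusted p = 0.187), and its part was not tested. The background count itself moved widely. The count of called probe sets was 1077 with all arrays, 0 without morpholino replicate 1 (limma, 4035 at an unadjusted p below 0.05), 462 without replicate 2, 50 and 31 without the first and second chordin and wnt3a array, 256 to 343 without any 1 of the other 4 arrays, 32 in a fit of the groups compared alone, and 3289 with the replicate number as a block. The morpholino group against uninjected called 1 member higher and 0 lower, beside 20.9% and 15.3%. Against chordin caps it called 0, beside 6.12% and 5.26%. At an unadjusted p below 0.05, limma gave 0 of 7 members for chordin, beside 9381 of all 22000 probe sets tested. It gave 1 member for added wnt3a, beside 3864 probe sets, and 0 for the added morpholino, beside 5234. Chordin with wnt3a against uninjected gave 0, beside 9968. The morpholino group gave 2 members against uninjected, beside 10531 probe sets, and 2 against chordin, beside 6336. In no comparison was the share of members larger than that of all probe sets. Comparisons that share a group share its arrays.

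**Figure D3:**
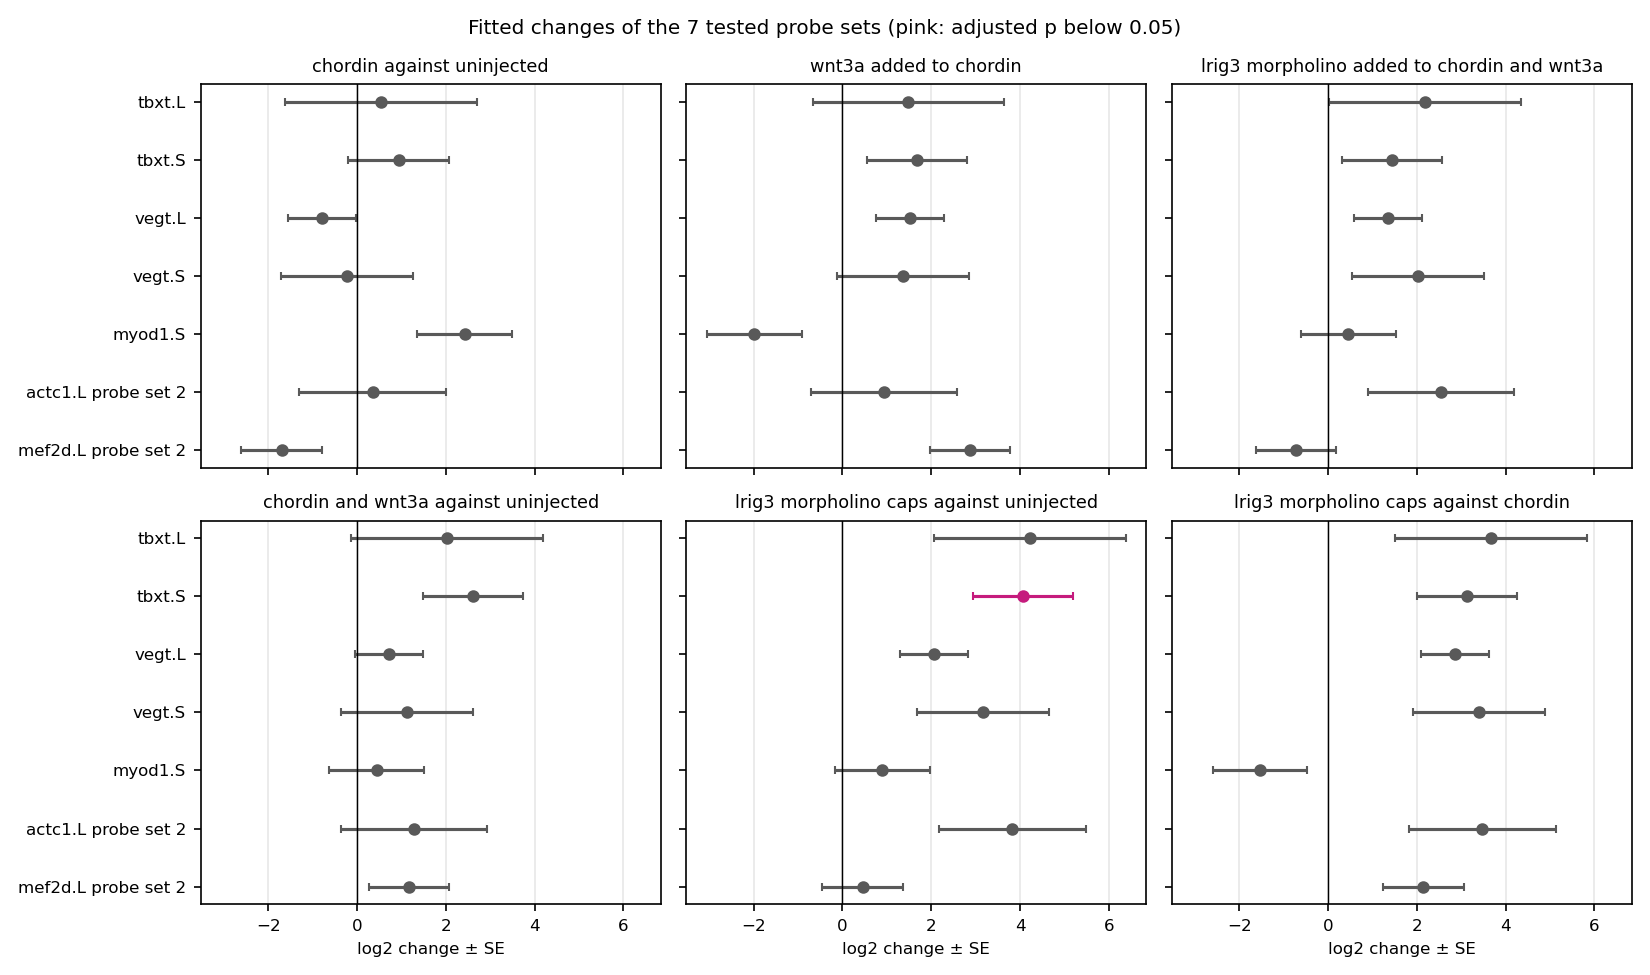
Fitted log2 change with its standard error for the 7 tested members in the 6 comparisons, 2 arrays per group; pink marks an adjusted p below 0.05. Tbxt.S in the morpholino group against uninjected caps, at 4.06 (SE 1.13), is the single pink point.

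The result of the morpholino comparison turned on which array stood for the group. With replicate 1 alone, log2 changes over chordin and wnt3a caps were 5.62 for tbxt.L, 3.38 for tbxt.S, 2.67 for vegt.L and 4.62 for vegt.S. They were 2.19 for myod1.S, 5.30 for actc1.L probe set 2 and 0.43 for mef2d.L probe set 2. With replicate 2 alone, 5 of 7 changes turned negative: tbxt.L to -1.25, tbxt.S to -0.48, vegt.S to -0.56, myod1.S to -1.29 and actc1.L probe set 2 to -0.21. Vegt.L was at 0.014. Mef2d.L probe set 2, already negative with both arrays at -0.72, was at -1.87. No probe set of the 22000 was called in that fit. Among the changes from replicate 1 alone, those of tbxt.L, vegt.S and actc1.L probe set 2 are for probe sets that passed the filter through that same array. All 5 genes were picked with the difference between the morpholino arrays known. The changes from replicate 1 alone therefore repeat that choice and are no support for a difference. A lone array is assumed in such a fit to vary like the other groups.

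**Figure D4:**
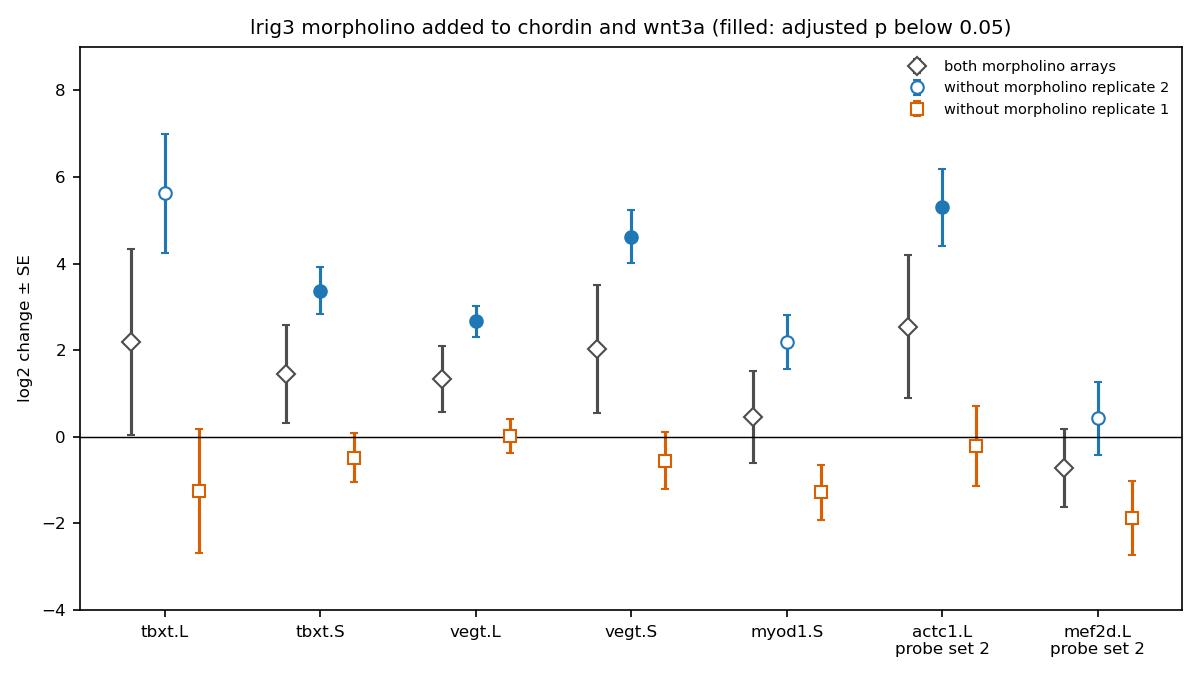
Log2 change with its standard error for the 7 tested members when the morpholino was added to chordin and wnt3a, from both morpholino arrays (diamonds), from replicate 1 alone (circles) and from replicate 2 alone (squares); filled symbols have an adjusted p below 0.05. Circles reach 5.62 for tbxt.L, where the square is at -1.25.

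Other genes of the mesoderm pathways were taken from 16 lists, each symbol by its brightest probe set, and members were left out of them. Counts of gaps and calls in these lists cover only genes that passed the filter. Some FGF and nodal pathway genes were higher on both morpholino arrays than on the chordin and wnt3a arrays. In the morpholino comparison, 2 of 15 FGF genes and 1 of 12 nodal and activin genes rose and none fell, beside the 2.73% and 2.16% of all probe sets given above. With so few genes these counts are a description. Fgf3.L, an FGF ligand, read 66.3 and 78.1 with chordin and wnt3a, and 1121 and 1755 with the morpholino. Both morpholino arrays were above every other array (log2 change 4.19, SE 0.32, limma adjusted p = 0.00699). Tdgf1.3.L, a co-receptor for nodal, read 51.1 and 54.0 without the morpholino, and 918 and 604 with it (3.70, SE 0.41, adjusted p = 0.0168). With replicate 2 alone the changes were 4.51 (adjusted p = 0.0539) and 3.40 (0.0967). Fgf8.L rose too (3.07, SE 0.61, adjusted p = 0.0430), from 193 and 122 to 2608 and 678. Its level in chordin caps was 2497 and 2113. The calls held in 15 of 16 alternatives for fgf3.L, 13 for tdgf1.3.L and 7 for fgf8.L.

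Canonical Wnt genes split by the same pair of arrays. Wnt8a.L, a Wnt ligand, read 4612 and 4777 with the morpholino and axin2.S, a feedback inhibitor of the pathway, 3628 and 4005, so these were alike on both arrays. By contrast, the caudal-type homeobox gene cdx1.S read 5363 on replicate 1 and 17.1 on replicate 2, cdx4.L 5425 and 300.2, and cdx2.L 2857 and 272. Of 24 kept Wnt genes, 4 were at least 4-fold higher on replicate 1 and 0 lower. In the morpholino comparison 2 of the 24 rose and 1 fell, against the same 2.73% and 2.16%, with sp5l.S, a Wnt-responsive zinc finger factor, going from 1171 and 912 to 13538 and 6591 (3.19, SE 0.45, limma adjusted p = 0.0238).

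Tailbud and neuromesodermal genes had the highest share of genes raised by 4-fold or more on replicate 1 among the 16 lists, 9 of 19 with 0 lower, and a median gap of 1.93. Between the chordin and wnt3a arrays 5 of the same 19 were also at least 4-fold higher on replicate 1, with a median gap of 0.69. Cdx1.S read 966 and 11.9 there, cdx4.L 1068 and 169, and hoxc10.L 66.8 and 0.327. This list shares genes with others, among them the cdx genes and the injected wnt3a.S with the Wnt list. It also shares fgf8 with the FGF list and hes7.1.L with the early mesoderm list. The posterior Hox genes hoxc10.L (955 and 6.73), hoxb9 (2524 and 86.1) and hoxd10.L (2781 and 301.3) were among the 9 genes higher on morpholino replicate 1. In the morpholino comparison 4 of the 19 rose (2.73% of all probe sets), namely the Notch ligand dll1.L, fgf8.L, the receptor notch1.S and its modifier lfng.S, and none fell. The last 2 calls held in 5 and 7 of 16 alternatives, and dll1.L in 9. All 4 genes were lower on both chordin and wnt3a arrays than on both chordin arrays. Chordin caps read 1452.5 and 634 for dll1.L, 1791 and 1699 for notch1.S, and 510 and 381 for lfng.S. With wnt3a added these were 235 and 143, 531 and 1031, and 184 and 147. The morpholino group read 3283 and 1190, 2494 and 2268, and 656 and 422. Dll1.L was at 1550 and 1236 in uninjected caps.

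Among 11 dorsal mesoderm and notochord genes, 2 were at least 4-fold higher on morpholino replicate 1 and 1 was lower. The notochord homeobox genes not.S (689 and 3.96) and not.L (625 and 35.4) were the higher ones, and otx2.L (29.7 and 182), also an anterior neural gene, was lower. Early mesoderm regulators went both ways, with 5 of 18 higher and 4 lower. Lmo2.S read 284 and 4.91, whereas the secreted Frizzled-related gene szl.L read 6.80 and 1254 and the T-box gene tbx3.S 42.2 and 1055. Neither list had a gene called in the morpholino comparison.

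Few muscle list genes that passed the filter had a gap like that of actc1. Of 8 myogenic regulators kept, 0 had a gap of 4-fold between the morpholino arrays. Of 11 muscle structure genes kept, 1 did, the myosin light chain mylpf.L (144 and 14.9). The lists had 20 and 42 measured genes, and the filter drops genes bright on 1 array, as it did actc1.L probe set 1. Such genes are missing from these counts. Of the 20 myogenic regulators, 12 and 8 were above background on the morpholino arrays. Summed signals of the 42 measured muscle structure genes were 2558 and 2561 on the morpholino arrays, beside 3561 and 3839 in uninjected caps. Most of the uninjected sums came from atp2a1.S (2141 and 2517) and tnni2.S (677 and 498). On the morpholino arrays atp2a1.S read 1023 and 1308, and tnni2.S 94.7 and 178. Of the 42, 17 and 13 were above background there, so the sums do not show whether dim muscle genes differed. Neither list had a call when the morpholino was added. Pax3.S, a factor of muscle precursors and also of neural crest, rose when wnt3a was added to chordin (log2 change 6.93, SE 0.38, limma adjusted p = 3.47e-04), and its morpholino arrays read 1766 and 1858. The other copy, pax3.L, was not called there, at 4197 and 7164 with chordin and 5770 and 7734 with wnt3a added. It read 5633 and 8081 in uninjected caps and was lower in the morpholino group, at 1847 and 3626 (-1.38, SE 0.39, limma adjusted p = 0.0351).

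Genes of other cell types moved with the gap as well, and their part in it was not tested. Multiciliated cell genes were lower on morpholino replicate 1 in 6 of 11 cases with 0 higher, and their summed signals were 1264 and 4685. Epidermis had 2 of 15 lower and 0 higher, with sums of 84104 and 117304 and all 15 above background on both arrays. Endoderm had 2 of 7 lower, with sums of 1320 and 2075. For all probe sets kept, 1.99% were at least 4-fold lower on replicate 1. Neural plate (15 genes), neural crest (17) and housekeeping (12) had no gap of that size. Anterior neural genes had 2 of 13 higher and 1 lower, and maternal vegetal genes 1 of 7 lower. Such counts include signals at background, which was 30.8 and 26.1 on the morpholino arrays. Six6.L, among the higher anterior neural genes, read 22.5 and 1.33, and the lower one, otx2.L, read 29.7 on replicate 1. Between the chordin and wnt3a arrays, 5 of 15 epidermis genes were at least 4-fold higher on replicate 1, the array on which tbxt.L was measurable.

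**Figure D5:**
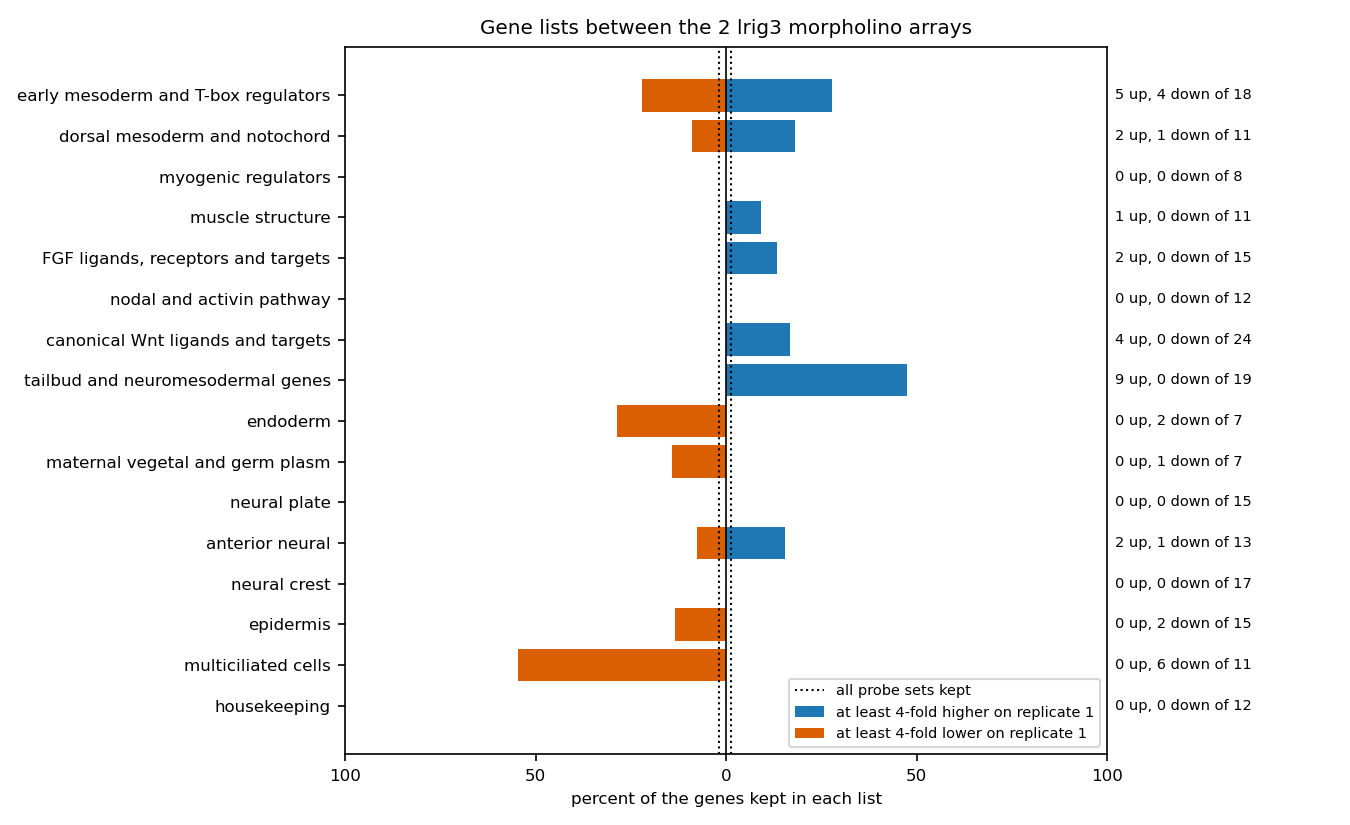
Percent of the kept genes of each list that were at least 4-fold higher (blue, right) or lower (orange, left) on morpholino replicate 1 than on replicate 2, with the counts printed beside; dotted lines give the shares of all probe sets kept, 1.18% and 1.99%. Tailbud genes (9 of 19) and multiciliated cell genes (6 of 11) have the longest bars.

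Technical readings also separated arrays. For the gapdh control probe sets, signal at the 3' end over signal at the 5' end lay between 1.26 and 1.41 on the replicate 1 arrays and was higher, 1.61 to 1.76, on all replicate 2 arrays. Poly-A spike-in controls averaged 922 and 811 on the morpholino arrays, 1002 and 542 on the uninjected ones and 414 to 483 on the others. Their part in the member values was not tested. Scaling to the spike-ins moved the median change of all probe sets by -0.94 in the morpholino comparison, -0.90 for the morpholino group against chordin, -0.22 against uninjected, 0.67 for chordin and 0.71 for chordin with wnt3a against uninjected. Calls then went from 601 higher and 476 lower to 146 and 5431 in the morpholino comparison. For chordin against uninjected they went from 3866 and 2579 to 5772 and 725, for chordin with wnt3a against uninjected from 4172 and 3242 to 6897 and 1078, for the morpholino group against uninjected from 4606 and 3363 to 1520 and 2194, and against chordin from 1346 and 1158 to 406 and 5880. Fgf3.L and tdgf1.3.L stayed higher with the morpholino under that scaling (3.25 and 2.77), and the call of tbxt.S against uninjected caps did not hold (3.79, limma adjusted p = 0.101).

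For the brightest probe set of each member gene, other genes were ranked by Pearson correlation of log2 signal over the 8 arrays. This is a description across arrays that share groups and a single very high array. For tbxt.S these were gdf10.L (0.987, and 0.959 over the 7 arrays without morpholino replicate 1), sat1.L (0.975, 0.917) and hoxb6.S (0.970, 0.927). For vegt.L they were hoxb7.S (0.973, 0.893), LOC100101283 (0.965, 0.926) and nradd.S (0.962, 0.928). A second probe set of hoxb9 (0.982, 0.952), sfrpx.S (0.976, 0.919) and atg16l1.L (0.972, 0.953) were closest to actc1.L probe set 2. Myod1.S, with its high chordin arrays, was closest to psmb1.S (0.956, 0.973), sdc4.L (0.956, 0.949) and lmo2.S (0.948, 0.965). Mef2d.L probe set 2 was closest to bcl2l1.S (0.942, 0.948), dusp1.S (0.941, 0.932) and eif3a.L (0.934, 0.916). A correlation does not measure the size of a change: psmb1.S ranged only from 3340 to 4124 and eif3a.L from 16312 to 21071.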

How the data were processed

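The authors deposited linear signal intensity values, with MAS5 named in the submitters' processing notes and no version. The 2% trimmed mean of each array was near 500.1, so arrays had been scaled to a common mean, and nothing further was applied in the main analysis. Biotin-labelled RNA came from in vitro transcription, per the labels' protocols. No coordinates are printed, as no source used here names a genome build for the array. The series text mentions extraction at stage 9 and also culture to stage 15, and the later stage is used.

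The 96 manufacturer controls were left out. Signals were taken as log2(signal + 5.22), where 5.22 is the 10th percentile of all signals, which understates the change of dim genes. Probe sets brighter than the 40th percentile of the array on 2 or more arrays were kept. Limma 3.58.1 in R 4.3.3 (lmFit, eBayes with trend and robust) was fitted to all 8 arrays with 4 residual degrees of freedom, and p-values were adjusted by Benjamini-Hochberg over the 22000 probe sets and called below 0.05. The median standard error was 0.290. If neither array of the dimmer group exceeded background, folds carry the words "at least". Their base is then the mean, over the arrays of that group, of background or the probe set's own log2 value, whichever is higher. The files hold no detection calls. The number of arrays limits precision here, and an exact permutation test of 2 against 2 cannot go below p = 0.333, so none was run. Separate embryo batches are not stated for the replicates, so p-values reflect the spread between these arrays, and that spread may be technical.

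The difference between replicates 1 and 2 correlated between every pair of groups, at 0.172 to 0.505 over 6 pairs, so the numbers were taken to pair the arrays. The main fit has no term for this pairing, so its p-values and counts ignore it. The block was run as an alternative. Other alternatives were 2 pseudocounts, no filter, quantile and spike-in scaling, another variance model, only the groups compared, each array left out, and another background level. Symbols came from the platform annotation and were looked up by Entrez number in a RefSeq table of Xenopus_laevis_v10.1. For 15384 probe sets the number was found and the symbol of that table was used. How many symbols changed was not counted. Of 32539 probe sets, 15495 had a single symbol, 279 several and 16765 none. The .L and .S copies may cross-hybridise. Named genes are the members, the called genes with the largest changes of each list (up to 4 a comparison), and injected or targeted genes. Also named are the 3 genes most like the brightest probe set of each member gene. Genes named for a gap between the morpholino arrays were added after their values were seen. The members and lists were chosen with earlier results of these data known.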

Additional observations from a re-analysis of the deposited data

How the results depend on the processing

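The main counts of called members were 0 in 5 of 6 comparisons, so counts that stay at 0 say nothing of stability. Leaving out each array in turn gave 0 to 1 called members for chordin against uninjected, 0 to 1 for added wnt3a, 0 to 4 for the added morpholino, 0 to 1 for chordin with wnt3a against uninjected, 0 to 6 for the morpholino group against uninjected and 0 to 5 against chordin. The upper ends of the ranges that involve the morpholino group came without morpholino replicate 2. They rest on replicate 1 alone, through which some of the tested members passed the filter, and are no support for a difference. In the morpholino group against uninjected, 0 members were called without either uninjected array, without either chordin array or without morpholino replicate 1, with an adjusted p of tbxt.S from 0.0533 to 0.124. Spike-in scaling gave 1 call for chordin, 0 for the morpholino group against uninjected and 1 against chordin. A fit of only the groups compared gave 1 for chordin, 2 for chordin with wnt3a against uninjected (tbxt.S, adjusted p = 0.0137, and mef2d.L probe set 2, 0.0444) and 0 for the morpholino group against uninjected. The replicate block gave 1 call for the morpholino group against chordin, vegt.L, and changed no other member call. Tbxt.S in chordin with wnt3a against uninjected was called without morpholino replicate 1 (0.00898) or 2 (0.00822). The pseudocounts of 1 and 32, no filter, quantile scaling and the other variance model kept all 6 counts. Over all probe sets, calls ranged without 1 array from 2298 to 6516 for chordin against uninjected (main 6445), 449 to 1358 for added wnt3a (1280), 0 to 462 for the added morpholino (1077), 2926 to 7417 for chordin with wnt3a against uninjected (7414), and 3151 to 7601 (7969) and 520 to 2165 (2504) for the morpholino group against uninjected and chordin. The replicate block gave 2031 for added wnt3a, 3289 for the added morpholino and 4726 for the morpholino group against chordin, spike-in scaling 5577, 3714 and 6286 for the added morpholino and the morpholino group against uninjected and chordin, and the groups compared alone 32 and 1016 for the added morpholino and the group against chordin.

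Of single member values, 637 stayed the same, 25 passed in addition and 7 no longer passed. A further 5 bounds on a fold moved and 19 log2 changes reversed. The 637 are log2 changes that kept direction and call, and bounds on a fold, which carry no call. Most of these log2 changes were uncalled under both settings, so their calls say nothing of stability. None of the reversed values passed the test. Leaving out each array in turn gave these ranges of log2 change. For the added morpholino they were -1.25 to 5.62 for tbxt.L, -0.48 to 3.38 for tbxt.S, -0.56 to 4.62 for vegt.S, -1.29 to 2.19 for myod1.S, -0.21 to 5.30 for actc1.L probe set 2, 0.014 to 2.67 for vegt.L and -1.87 to 0.43 for mef2d.L probe set 2, each with its ends at the loss of either morpholino array. The morpholino group against uninjected gave -0.84 to 2.64 for myod1.S and -0.70 to 1.60 for mef2d.L probe set 2, and against chordin -3.27 to 0.21 for myod1.S, with the same arrays at the ends. For chordin against uninjected the ranges were -0.079 to 1.17 for tbxt.L, -0.57 to 0.10 for vegt.S and -0.54 to 1.25 for actc1.L probe set 2, which was -0.088 without uninjected replicate 1. Added wnt3a gave tbxt.L -0.14 to 3.11, and chordin with wnt3a against uninjected gave myod1.S -0.18 to 1.06, by the array of the chordin and wnt3a group left out. Spike-in scaling reversed vegt.S for chordin against uninjected (0.29) and myod1.S for the added morpholino (-0.40). Beyond what these settings show by construction, the cause was not tested. Signals near background limit tbxt.L, vegt.S, myod1.L, actc1.L, mef2d.L probe set 1 and mef2d.S on most arrays.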
